A study of Mus musculus with 6 samples.

Results

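Chemokines are small secreted proteins that direct the movement of leukocytes, and chemokine receptors are the cell surface proteins that read them. The genes were taken by symbol from the count matrix of lip RNA-Seq: Ccl, Cxcl, Xcl or Cx3cl with a digit for ligands, and Ccr, Cxcr, Xcr, Cx3cr or Ackr with a digit for receptors. This gave 58 of 26814 gene symbols, 36 ligands and 22 receptors, with the unprocessed pseudogene Ccl19-ps1 and the polymorphic pseudogene Cxcl11 (as annotated) among the ligands. Of these, 37 had 1 CPM or more (counts per 1000000 counts of a library) in 3 or more of the 6 libraries and were tested, 23 ligands and 14 receptors. The other 21 are listed as not expressed.

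RNA came from the top lip of adult female mice, with 1 library per mouse, 3 libraries labelled Gtf2ird1-KO and 3 labelled WT. The KO mice carried the targeted Gtf2ird1 tm1Hrd allele, which the study describes as a model of homozygous loss of the gene. The WT mice were wild type, and both groups were on the C57BL/6J background. The knockout was carried by the whole animal, so that epidermis, dermis, muscle, vessels and immune cells of the lip shared the genotype. The libraries are named WT1 to WT3 and KO1 to KO3, and the labels pair no KO mouse with a WT mouse.

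Chemokines are grouped by the spacing of the cysteines near their start into CC, CXC, XC and CX3C ligands. They bind glycosaminoglycans and signal through receptors coupled to Gi proteins, while atypical (Ackr) receptors take them up without this signalling. In skin, keratinocytes, fibroblasts, endothelial cells and resident macrophages all make them, some at rest and some on exposure to cytokines or microbes. Interferons induce the CXCR3 ligands Cxcl9, Cxcl10 and Cxcl11, and nuclear factor kappaB is a known inducer of Cxcl1, Ccl2 and Ccl20.

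Library totals ran from 20164081 to 29491767 counts, so that 3 counts equal 0.0986 to 0.154 CPM, and this floor covers counting error only. The gene targeted in the KO mice, Gtf2ird1 itself, was measured at 78.2, 70.2 and 70.7 CPM in the WT libraries and at 166, 162 and 144 CPM in the KO libraries. Its count was higher, not lower, in all 3 KO-labelled libraries (log2 fold change 1.11, SE 0.13, adjusted p = 0.0018, edgeR quasi-likelihood test), and counts per gene do not show whether these transcripts are intact. As background, the GTF2IRD1 protein is known to bind the promoter of its own gene. The count therefore does not check the labels, and each direction below is that of the KO-labelled libraries against those labelled WT. KO3 stood nearer to the WT libraries (correlation of log2 CPM over genes 0.959 to 0.965) than KO1 and KO2 did (0.918 to 0.945), and results that change without it are given both ways. Epithelial, dermal and muscle markers were all abundant, as the summed levels given beside the results show.

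Of the 37 tested chemokine and receptor genes, 7 were higher and 1 was lower in the KO-labelled libraries at an adjusted p under 0.05 (edgeR quasi-likelihood test, Benjamini-Hochberg over all 15009 tested genes). This is 21.6% of them, beside 6.47% of all tested genes called in either direction, 4.38% higher and 2.09% lower. The 7 were the ligands Cxcl10, Ccl20, Ccl1, Cxcl1, Ccl2 and Cxcl16 and the receptor Cxcr6, and the 1 was the ligand Ccl6. Ccl1, Cxcl1, Cxcl9 and Cxcl13 passed the filter through the KO-labelled libraries alone, with 0 WT libraries at 1 CPM, so that they had to differ and their part in the count of 7 is not support. Cxcl10 and Ccl20 had 1 WT library at 1 CPM, and their 3 KO-labelled libraries were enough for the filter. The part of Cxcl10 and Ccl20 in the count of 7 is not support either. Of the 29 genes at 1 CPM or more in all 6 libraries, 4 were called (Ccl2, Cxcl16, Cxcr6 and Ccl6), beside 5.54% of the 13906 tested genes that met the same condition. The median log2 fold change over the 37 genes was -0.03 and over all tested genes -0.02, so that the tested genes as a whole lay on both sides of 0, 18 of them positive and 19 negative.

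**Figure D1:**
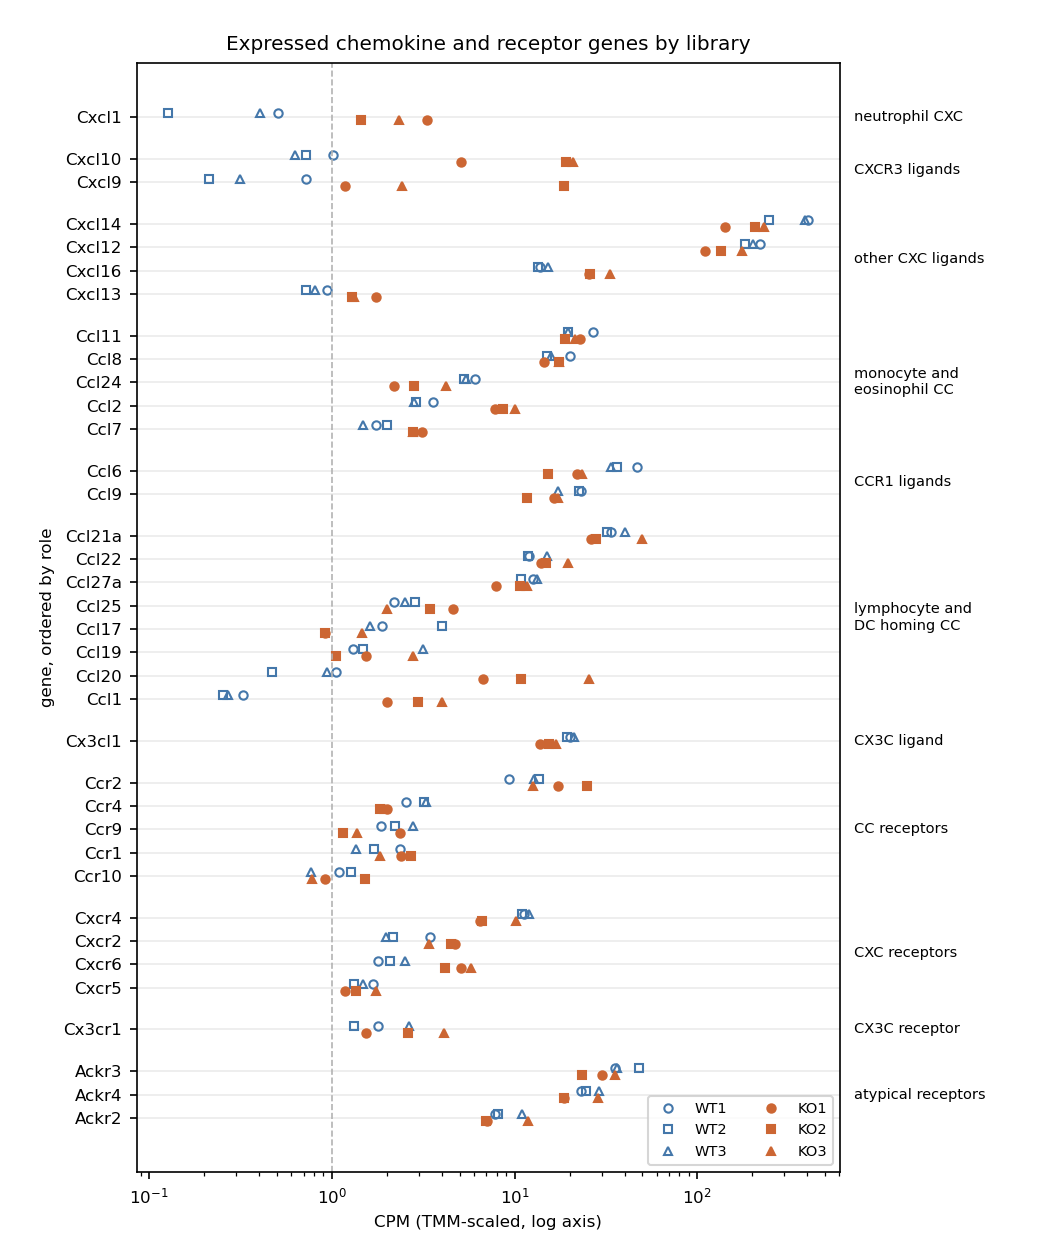
Level of 36 of the 37 expressed chemokine and receptor genes in each of the 6 libraries, in CPM on a log axis, ordered by role; open blue symbols are WT libraries, filled orange symbols are KO-labelled libraries, and the dashed line is 1 CPM. Cxcl10, Ccl20, Ccl1 and Cxcl1 show the widest gaps between the groups, Cxcl14 and Cxcl12 lie farthest right, and most receptors overlap.

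The 37 genes spanned a wide range of level in WT lip. Per kilobase of merged exons, the scale on which levels of different genes can be compared, Cxcl14 was highest at 190 ± 47 CPM per kb (SD, n = 3), followed by Ccl8 at 33.2 ± 5.4, Ccl21a at 27.8 ± 3.3, Cxcl12 at 24.7 ± 2.4, Ccl6 at 21.8 ± 3.9 and Ccl11 at 20.4 ± 4.0. Cxcl14 stood clear of the rest, whereas each neighbouring pair from Ccl8 to Ccl11 differed by less than the larger SD of the pair. The atypical receptor Ackr3 was the highest receptor at 12.0 ± 2.1 CPM per kb, and Cxcr4 was the highest conventional receptor at 6.31 ± 0.27. At the other end were Ccl1 at 0.120, Cxcl9 at 0.139 and Cxcl1 at 0.185 CPM per kb.

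The order was not the same in the KO-labelled libraries. Cxcl14 remained first, at 106 ± 26 CPM per kb. Ccl20 went from place 28 of 37 in WT, at 0.578 ± 0.219 CPM per kb, to place 7, at 10.1 ± 6.9 CPM per kb. Cxcl10 went from place 31 to place 12, Ccl2 from 18 to 10 and Cxcl16 from 15 to 8. Ccl6 stayed among the first 6 although its level per kb fell to 11.2 ± 2.4.

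The upstream sequence is shown for the 4 called genes with the highest log2 fold changes, Cxcl10, Ccl20, Ccl1 and Cxcl1, so that the ligands with the widest differences can be read beside their values. Each line holds the 250 bases before the RefSeq transcript start, read 5′ to 3′ on the gene's strand in build GRCm38.p6. Cxcl10 is at chr5:92348890-92349139 (minus strand), Ccl20 at chr1:83116516-83116765 (plus strand), Ccl1 at chr11:82179813-82180062 (minus strand) and Cxcl1 at chr5:90890995-90891244 (plus strand). Capitals mark letters that match a kappaB-like motif (GGANNTTCC, the same on both strands) or an interferon-response-like motif (GAAANNGAA, searched on both strands).
Cxcl10: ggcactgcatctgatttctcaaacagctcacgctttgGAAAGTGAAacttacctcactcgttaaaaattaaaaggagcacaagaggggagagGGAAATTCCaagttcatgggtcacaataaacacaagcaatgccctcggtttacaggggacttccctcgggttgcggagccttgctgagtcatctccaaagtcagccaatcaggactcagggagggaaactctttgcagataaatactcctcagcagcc
Ccl20: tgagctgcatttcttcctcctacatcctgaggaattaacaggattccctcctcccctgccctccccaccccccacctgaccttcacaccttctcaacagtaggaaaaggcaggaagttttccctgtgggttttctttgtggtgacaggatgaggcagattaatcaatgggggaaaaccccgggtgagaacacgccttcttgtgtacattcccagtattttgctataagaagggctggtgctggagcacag
Ccl1: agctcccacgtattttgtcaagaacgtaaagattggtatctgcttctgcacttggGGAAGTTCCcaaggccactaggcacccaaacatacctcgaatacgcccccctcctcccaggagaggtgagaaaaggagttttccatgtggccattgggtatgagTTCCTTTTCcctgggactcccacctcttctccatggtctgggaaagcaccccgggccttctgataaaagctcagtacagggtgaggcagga
Cxcl1: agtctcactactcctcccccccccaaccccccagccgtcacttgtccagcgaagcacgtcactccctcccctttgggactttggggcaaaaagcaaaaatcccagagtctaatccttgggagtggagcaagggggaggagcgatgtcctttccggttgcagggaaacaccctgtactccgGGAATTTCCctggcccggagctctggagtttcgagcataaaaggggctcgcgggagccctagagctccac

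The kappaB-like letters stood at positions -158 to -150 from the start in Cxcl10, -195 to -187 in Ccl1 and -70 to -62 in Cxcl1. The interferon-response-like letters stood at -213 to -205 in Cxcl10 and, on the opposite strand, at -91 to -83 in Ccl1. No match to these patterns was found in this window of Ccl20, and looser forms of the motifs were not searched. RefSeq upstream sequences were matched for 29 of the 37 tested genes and for 6 of the 8 called genes. The kappaB-like motif was in 3.59% of all 32851 upstream windows of this length and in 3 of the 29 matched genes, namely Ccl1, Cxcl1 and Cxcl10. The interferon-response-like motif was in 7.13% of all windows and in 6 of the 29, namely Ccl1, Ccl19, Ccr2, Cxcl10, Cxcl14 and Cxcl9. The GAS-like motif TTCNNNGAA (the same on both strands), was in 7.02% of all windows and in 2 of the 29, Ccl17 and Cxcl14. These matches describe letters and not binding, and they include Cxcl14 and Ccl19, which were not called.

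Of the ligands of CXCR3, the receptor of activated T cells and natural killer cells, Cxcl10 held the highest log2 fold change of the 37 tested genes. Cxcl10 (chr5:92346638-92348889, minus strand) was at 1.02, 0.723 and 0.630 CPM in WT1 to WT3 and at 5.12, 19.1 and 20.9 CPM in KO1 to KO3. All 3 KO-labelled libraries were above all WT libraries, with KO1 well below KO2 and KO3. Only 1 WT library reached 1 CPM, so that the 3 KO-labelled libraries were enough for the filter. The fold was 18.8 (log2 fold change 4.23, SE 0.55, adjusted p = 0.00345, edgeR quasi-likelihood test), and Cxcl10 was called with each library left out in turn, at log2 fold changes of 3.94 to 4.70. Cxcl10 overlaps Art3 on the opposite strand, and Art3 was not called (log2 fold change -0.32, adjusted p = 0.308).

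Cxcl9, the neighbour of Cxcl10, was at 0.726, 0.213 and 0.315 CPM in WT and at 1.18, 18.7 and 2.42 CPM in the KO-labelled libraries. The groups did not overlap, but Cxcl9 passed the filter through the KO-labelled libraries alone and so had to be separated. A single library, KO2, held nearly all of its counts, 570 of them beside 5 to 20 counts in each WT library. Its log2 fold change of 4.13 had an SE of 1.09 and did not pass (adjusted p = 0.0638, edgeR quasi-likelihood test). Without KO2 the value was 2.11 (adjusted p = 0.118, with the filter eased to 2 libraries), and it was called by the edgeR exact test, by DESeq2 and without the filter. Cxcl11, the remaining ligand, had at most 0.625 CPM in any library and was not tested. Cxcr3 itself stayed under the filter, at 0.762, 0.213 and 0.450 CPM in WT and 0.358, 0.888 and 0.960 CPM in the KO-labelled libraries, and the groups overlapped.

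Markers of T cells and natural killer cells, which carry CXCR3, were measured beside these ligands. The summed level of 16 T cell markers was 26.5 to 35.9 CPM in WT and 32.7 to 54.7 CPM in the KO-labelled libraries, and 10 of the 10 tested markers had positive log2 fold changes (0.12 to 1.01), 4 of them at an unadjusted p under 0.05, which 29.6% of all tested genes reached, and 0 called. For 8 natural killer cell markers the sum was 1.92 to 2.47 CPM in WT and 3.12 to 4.41 CPM in the KO-labelled libraries, and the defining markers Ncr1 and Gzma had 3 or fewer counts in every library. The part of these cells in the chemokine results was not tested. In bulk tissue, fewer or more cells of a type and less or more RNA per cell cannot be told apart.

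Of the neutrophil-attracting CXC ligands, which act through CXCR2, only Cxcl1 passed the filter. Cxcl1 (chr5:90891241-90893115, plus strand) was at 0.508, 0.128 and 0.405 CPM in WT, 3 to 14 counts, and at 3.33, 1.45 and 2.33 CPM in the KO-labelled libraries, 44 to 65 counts. The KO-labelled libraries were all above the WT libraries and KO1 was highest. Cxcl1 passed the filter through the KO-labelled libraries alone, so that it had to be separated. The log2 fold change was 2.71 (SE 0.49, adjusted p = 0.0175, edgeR quasi-likelihood test), but the call was lost without WT1 (adjusted p = 0.0559) or WT3 (adjusted p = 0.0717). Cxcl1 was called without each KO-labelled library when the filter was eased to 2 libraries (adjusted p = 0.0308, 0.0123 and 0.00475 without KO1, KO2 and KO3). Its paralogues showed no such gap: Cxcl5 was at 0.472, 0.595 and 0.225 CPM in WT and 0.461, 0.197 and 0.412 CPM in the KO-labelled libraries, Cxcl2 at 0.327, 0.298 and 0.180 against 0.768, 0.0658 and 0.549 CPM, and Cxcl3 had at most 0.563 CPM.

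Cxcr2, the neutrophil receptor for these ligands, was at 3.45, 2.17 and 1.98 CPM in WT and 4.71, 4.50 and 3.38 CPM in the KO-labelled libraries. KO3 lay just under WT1, so that the groups overlapped by 1 library, and the log2 fold change of 0.72 (SE 0.27) was not called (adjusted p = 0.127, edgeR quasi-likelihood test). It passed without KO3 (0.86, adjusted p = 0.0357). The summed level of 13 neutrophil markers was 42.9 to 54.2 CPM in WT and 52.5, 55.7 and 205 CPM in KO2, KO3 and KO1, with S100a8 at 64.8 CPM and S100a9 at 67.1 CPM in KO1. All 5 tested neutrophil markers had positive log2 fold changes (median 1.47), and 1, Stfa3, was called higher (log2 fold change 2.30, adjusted p = 0.00311, edgeR quasi-likelihood test). The defining markers Camp, Ngp and Fpr1 had 3 or fewer counts in every library, and keratinocytes can also make S100a8 and S100a9. The part of neutrophils in the Cxcl1 and Cxcr2 values was not tested.

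The other CXC ligands had log2 fold changes on both sides of 0. Cxcl16, a membrane-bound ligand made by macrophages and epithelia that also acts as a scavenger receptor, was at 13.8, 13.5 and 15.3 CPM in WT and 25.6, 25.9 and 33.2 CPM in the KO-labelled libraries. The groups were well apart and the fold was 1.99 (log2 fold change 0.99, SE 0.16, adjusted p = 0.0108, edgeR quasi-likelihood test). The call was lost without WT1 (log2 fold change 0.97, adjusted p = 0.0705). Cxcl16 (chr11:70453983-70459984, minus strand) overlaps Zmynd15 on the opposite strand, which was also called higher (log2 fold change 1.27, adjusted p = 0.00999), and without a stated strand setting reads of the pair cannot be told apart.

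Cxcr6, the receptor of Cxcl16 on skin-homing and tissue-resident T cells, was the single receptor called. It was at 1.78, 2.08 and 2.52 CPM in WT and 5.07, 4.14 and 5.76 CPM in the KO-labelled libraries, with 49 to 56 counts in WT and 99 to 126 in KO. The groups did not overlap, and the fold was 2.35 (log2 fold change 1.23, SE 0.23, adjusted p = 0.0207, edgeR quasi-likelihood test). The log2 fold change stayed between 1.11 and 1.41 with any library left out, but the call was lost without WT1 (adjusted p = 0.109), WT2 (0.0607), WT3 (0.0550) or KO1 (0.0573). Cxcr6 (chr9:123806475-123811760, plus strand) overlaps Fyco1 on the opposite strand, which was not called (log2 fold change -0.64, adjusted p = 0.267). The T cell marker sums given above for the CXCR3 ligands apply here too, and their part in the Cxcr6 value was not tested.

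Cxcl14, a ligand of resting epithelium, and Cxcl12, the stromal ligand of CXCR4, were the most highly counted genes of the set. Cxcl14 was at 404, 248 and 391 CPM in WT and 142, 206 and 234 CPM in the KO-labelled libraries, with every KO-labelled library below every WT library and WT2 close to KO3. Its log2 fold change of -0.84 (SE 0.24) did not pass (adjusted p = 0.0779, edgeR quasi-likelihood test), whereas it was called by the edgeR exact test (adjusted p = 0.0139), by DESeq2 (adjusted p = 0.0284) and without KO3 (adjusted p = 0.0143). Cxcl12 was at 221, 182 and 203 CPM in WT and 111, 135 and 175 CPM in the KO-labelled libraries. These groups did not overlap either, with KO3 nearest to WT, and the log2 fold change was -0.52 (SE 0.18, adjusted p = 0.110, and adjusted p = 0.00896 without KO3). Cxcl13, the B cell follicle ligand, had a log2 fold change of 0.79 (adjusted p = 0.105) and no WT library at 1 CPM, and Cxcl17 had at most 0.0915 CPM.

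The receptors of Cxcl12 had values on the same side of 0 as the ligand. Cxcr4, its signalling receptor, was at 11.3, 11.01 and 12.0 CPM in WT and 6.45, 6.61 and 10.2 CPM in the KO-labelled libraries. The groups did not overlap, KO3 was again nearest to WT, and the log2 fold change was -0.56 (SE 0.21, adjusted p = 0.128, edgeR quasi-likelihood test, and 0.0076 without KO3). Ackr3, the atypical receptor that clears Cxcl12, was at 35.7, 48.3 and 36.6 CPM in WT and 30.2, 23.5 and 35.5 CPM in the KO-labelled libraries. Its groups were separated by a narrow gap between KO3 and WT1, and the log2 fold change was -0.43 (SE 0.20, adjusted p = 0.180, and 0.0414 without KO3).

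Stromal and muscle marker sums are given beside Cxcl12, Cxcl14 and their receptors. The summed level of 7 dermal fibroblast markers was 6473 to 8497 CPM in WT and 2795, 3558 and 6781 CPM in KO1, KO2 and KO3, and 7 of the 7 tested markers had negative log2 fold changes. That of 8 blood endothelial markers was 239 to 272 CPM in WT and 144, 172 and 280 CPM in KO1, KO2 and KO3. The 8 skeletal muscle markers summed to 12060 to 15160 CPM in WT and 5956 to 9338 CPM in the KO-labelled libraries. KO3 was the KO-labelled library nearest to WT in each of these sums, as it was for Cxcl12, Cxcl14 and Cxcr4. The part of tissue composition in these values was not tested.

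**Figure D2:**
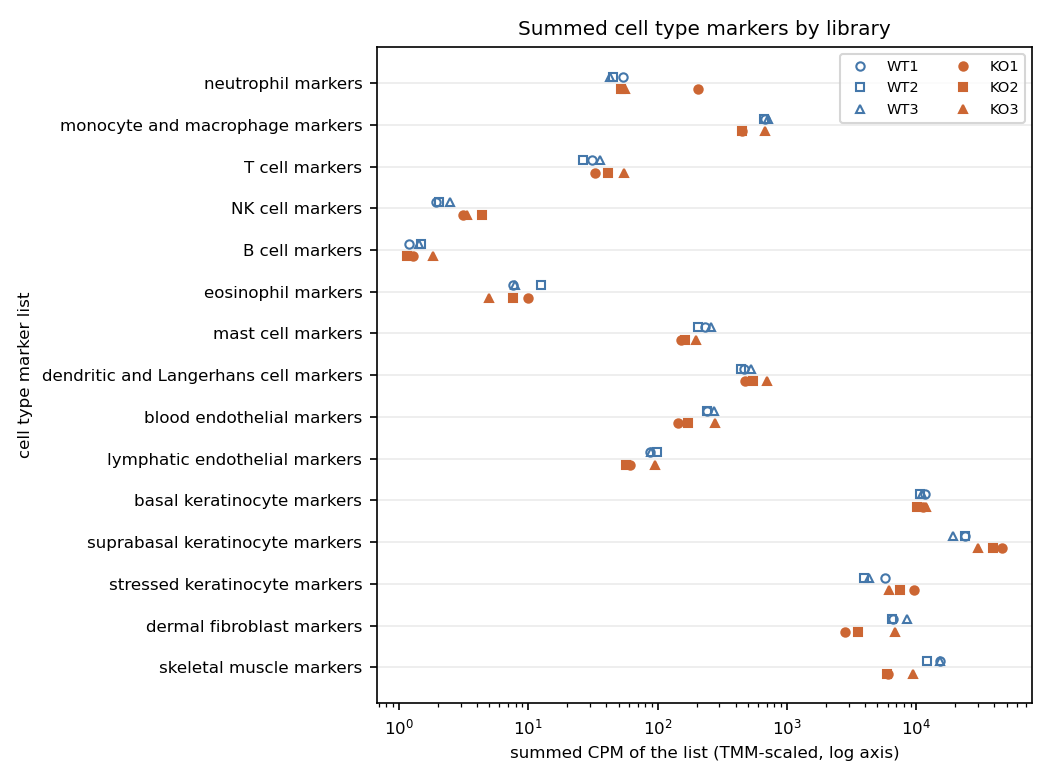
Summed CPM of each cell type marker list in each library, on a log axis, with open blue symbols for WT libraries and filled orange symbols for KO-labelled libraries. Suprabasal and stressed keratinocyte sums lie higher and skeletal muscle and mast cell sums lie lower in all 3 KO-labelled libraries, neutrophil markers stand out in KO1 alone, and KO3 lies near the WT libraries for fibroblast, endothelial and macrophage markers.

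Among the CC ligands that attract monocytes and eosinophils, Ccl2 rose. Ccl2, the main ligand of CCR2 (chr11:82035571-82037453, plus strand), was at 3.56, 2.89 and 2.83 CPM in WT and 7.78, 8.65 and 10.01 CPM in the KO-labelled libraries. The groups were far apart compared with the spread within each, and the fold was 2.84 (log2 fold change 1.51, SE 0.19, adjusted p = 0.00336, edgeR quasi-likelihood test). Ccl2 was called with each library left out in turn, at log2 fold changes of 1.41 to 1.65. Its opposite-strand neighbour Gm17268 had at most 0.0425 CPM.

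The genes beside Ccl2 in the same chromosome 11 cluster gave other values. Ccl7, a second CCR2 ligand, had a log2 fold change of 0.73 with groups that did not overlap, and it was not called (adjusted p = 0.0795, edgeR quasi-likelihood test, and 0.0375 without KO3). Ccl11 (eotaxin) was at 27.0, 19.5 and 19.6 CPM in WT and 22.9, 18.9 and 21.4 CPM in the KO-labelled libraries. Ccl8 was at 20.1, 14.96 and 15.8 CPM in WT and 14.6, 17.4 and 17.6 CPM in the KO-labelled libraries. Both overlapped fully between the groups, with log2 fold changes of -0.06 for Ccl11 (SE 0.18, adjusted p = 0.831) and -0.04 for Ccl8 (SE 0.17, adjusted p = 0.902), and the sign of each turned under other settings. Ccl12 had at most 0.980 CPM and was not tested. Ccl24, a second eosinophil ligand on chromosome 5, had a log2 fold change of -0.86 (adjusted p = 0.0801) and was called lower by the edgeR exact test, by DESeq2 and without KO3.

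Ccr2, the receptor of Ccl2 on inflammatory monocytes, was at 9.36, 13.6 and 12.8 CPM in WT and 17.4, 25.1 and 12.7 CPM in the KO-labelled libraries. KO1 and KO2 were above WT and KO3 was within the WT range, and the log2 fold change of 0.63 (SE 0.27) was not called (adjusted p = 0.162, edgeR quasi-likelihood test, and 0.0172 without KO3). Ccr3, the eosinophil receptor of Ccl11 and Ccl24, had at most 0.765 CPM and was not tested. The sum of 14 monocyte and macrophage markers was 662 to 719 CPM in WT and 449, 452 and 682 CPM in KO1, KO2 and KO3, and 10 of 13 tested markers had negative log2 fold changes, so that the order of the libraries was not that of Ccl2. Of the eosinophil markers, the defining Prg2 and Epx had 3 or fewer counts in every library, and both tested ones were called, Ear1 higher (log2 fold change 3.99, adjusted p = 0.00467, edgeR quasi-likelihood test) and Ear2 lower (-1.16, adjusted p = 0.0482). The summed level of the 6 eosinophil markers was 7.62 to 12.5 CPM in WT and 4.98 to 9.88 CPM in the KO-labelled libraries. The part of these cells in the Ccl2 and Ccr2 values was not tested.

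Ccl6, a macrophage-derived CCR1 ligand found in rodents (chr11:83587882-83593087, minus strand), was the single gene called lower. It was at 47.0, 36.3 and 33.9 CPM in WT and 21.8, 15.2 and 23.3 CPM in the KO-labelled libraries, with no overlap. The level fell by 48.5% (log2 fold change -0.96, SE 0.21, adjusted p = 0.0363, edgeR quasi-likelihood test). This call was kept when KO3 was left out (adjusted p = 0.00553) and lost without WT1 (0.148), WT2 (0.0798), WT3 (0.0784), KO1 (0.108) or KO2 (0.169), with log2 fold changes between -1.07 and -0.73. Its opposite-strand partner E230016K23Rik was at 1.02 to 1.21 CPM in WT and 0.549 to 0.723 CPM in the KO-labelled libraries.

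The neighbouring Ccl9, which also signals through CCR1, was at 23.0, 22.4 and 17.3 CPM in WT and 16.5, 11.7 and 17.3 CPM in the KO-labelled libraries. All 3 KO-labelled libraries lay below the WT libraries, KO3 only just, and the log2 fold change was -0.47 (SE 0.20, adjusted p = 0.164, edgeR quasi-likelihood test). The macrophage inflammatory proteins Ccl3 and Ccl4 and the T cell attractant Ccl5 were not expressed, with Ccl5 highest at 0.777 CPM in KO3. Ccr1 was at 2.36, 1.70 and 1.35 CPM in WT and 2.40, 2.70 and 1.83 CPM in the KO-labelled libraries, with overlap (log2 fold change 0.35, SE 0.28, adjusted p = 0.422). The macrophage marker sums given for Ccr2 were also lower in KO1 and KO2, and their part in the Ccl6 value was not tested.

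Ccl20 and Ccl1 rose among the ligands that guide lymphocytes and dendritic cells. Ccl20, an epithelial ligand of CCR6 (chr1:83116766-83119167, plus strand), was at 1.05, 0.468 and 0.944 CPM in WT and 6.75, 10.8 and 25.5 CPM in the KO-labelled libraries. All 3 KO-labelled libraries were far above WT, and KO3 was the highest of them. As for Cxcl10, 1 WT library reached 1 CPM, so that the 3 KO-labelled libraries were enough for the filter. The fold was 17.3 (log2 fold change 4.11, SE 0.56, adjusted p = 0.00432, edgeR quasi-likelihood test), and Ccl20 was called with each library left out, at log2 fold changes of 3.42 to 4.51.

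Ccr6, the receptor of Ccl20, fell just under the filter. It was at 0.835, 0.680 and 0.720 CPM in WT and 0.716, 1.78 and 2.47 CPM in the KO-labelled libraries, above WT in KO2 and KO3 and within the WT range in KO1. With the filter eased to 2 libraries, Ccr6 was called higher without KO1, and it was called in no other setting. There it passed the filter through KO2 and KO3 alone, so that it had to differ and this call is not support. Just inside the filter was Ccr10, at 1.09, 1.28 and 0.765 CPM in WT and 0.921, 1.51 and 0.777 CPM in the KO-labelled libraries. Langerhans cells, which can carry CCR6, have Cd207 as a defining marker, and Cd207 was at 3.16 to 4.29 CPM in WT and 12.4 to 13.3 CPM in the KO-labelled libraries (log2 fold change 1.81, adjusted p = 0.000932, edgeR quasi-likelihood test). The sum of the 10 dendritic and Langerhans cell markers was 443 to 523 CPM in WT and 474 to 706 CPM in the KO-labelled libraries. Of the 8 tested, Cd207 was the 1 called, 5 had positive and 3 negative log2 fold changes (-0.40 to 1.81), and the median was 0.27. Their part in the Ccl20 and Ccr6 values was not tested.

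Keratinocyte markers are the background for Ccl20 as an epithelial product. The summed level of 6 basal keratinocyte markers overlapped between the groups, 10630 to 11560 CPM in WT and 10020 to 11860 CPM in the KO-labelled libraries. The sum of 7 suprabasal markers was 19310 to 23920 CPM in WT and 30150 to 46000 CPM in the KO-labelled libraries, and that of 6 stressed keratinocyte markers 3925 to 5675 and 6090 to 9521 CPM. Both sums were lowest in KO3 among the KO-labelled libraries, whereas Ccl20 was highest in KO3. The part of keratinocytes or Langerhans cells in the Ccl20 value was not tested.

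Ccl1, a T cell-derived ligand of CCR8 (chr11:82176657-82305690, minus strand), was at 0.327, 0.255 and 0.270 CPM in WT and 1.996, 2.96 and 4.02 CPM in the KO-labelled libraries, which are 6 to 9 counts in WT and 39 to 90 counts in KO. The upstream window shown above for Ccl1 lies inside this annotated span, so that the RefSeq start used there is not the annotated start of the gene. The spread within each group was small compared with the gap. The fold was 10.3 (log2 fold change 3.37, SE 0.37, adjusted p = 0.00146, edgeR quasi-likelihood test), the lowest adjusted p of the set. Ccl1 passed the filter through the KO-labelled libraries alone, so that it had to differ and this p is not support. With the filter eased to 2 libraries, Ccl1 was called without KO1 (adjusted p = 0.000461), KO2 (0.00533) or KO3 (0.000406), and it was called without each WT library. Its receptor Ccr8 had 0.363, 0.340 and 0.540 CPM in WT and 0.461, 0.526 and 0.457 CPM in the KO-labelled libraries, and was not tested.

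The remaining lymphocyte and dendritic cell ligands were not called. Ccl21a, the CCR7 ligand of lymphatic vessels, was at 33.8, 32.1 and 40.1 CPM in WT and 26.4, 28.0 and 49.8 CPM in the KO-labelled libraries, with KO3 highest and KO1 lowest of all 6 (log2 fold change -0.03, SE 0.25, adjusted p = 0.953, edgeR quasi-likelihood test, sign turned under other settings). Ccl22, a CCR4 ligand of dendritic cells, was at 12.0, 11.9 and 15.02 CPM in WT and 14.0, 14.8 and 19.7 CPM in the KO-labelled libraries, with overlap (log2 fold change 0.32, SE 0.19, adjusted p = 0.293). Ccl27a, the keratinocyte ligand of CCR10, was at 12.6, 10.8 and 13.3 CPM in WT and 7.88, 10.7 and 11.7 CPM in the KO-labelled libraries, also with overlap (log2 fold change -0.28, SE 0.19, adjusted p = 0.364). Ccl21a, Ccl27a and Ccl19 have near-identical copies in the mouse genome, so that their counts are uncertain. Ccl17, the second CCR4 ligand, had a log2 fold change of -1.18 (adjusted p = 0.105) with groups that did not overlap, and it was called lower by the edgeR exact test and without KO3, but not by DESeq2.

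**Figure D3:**
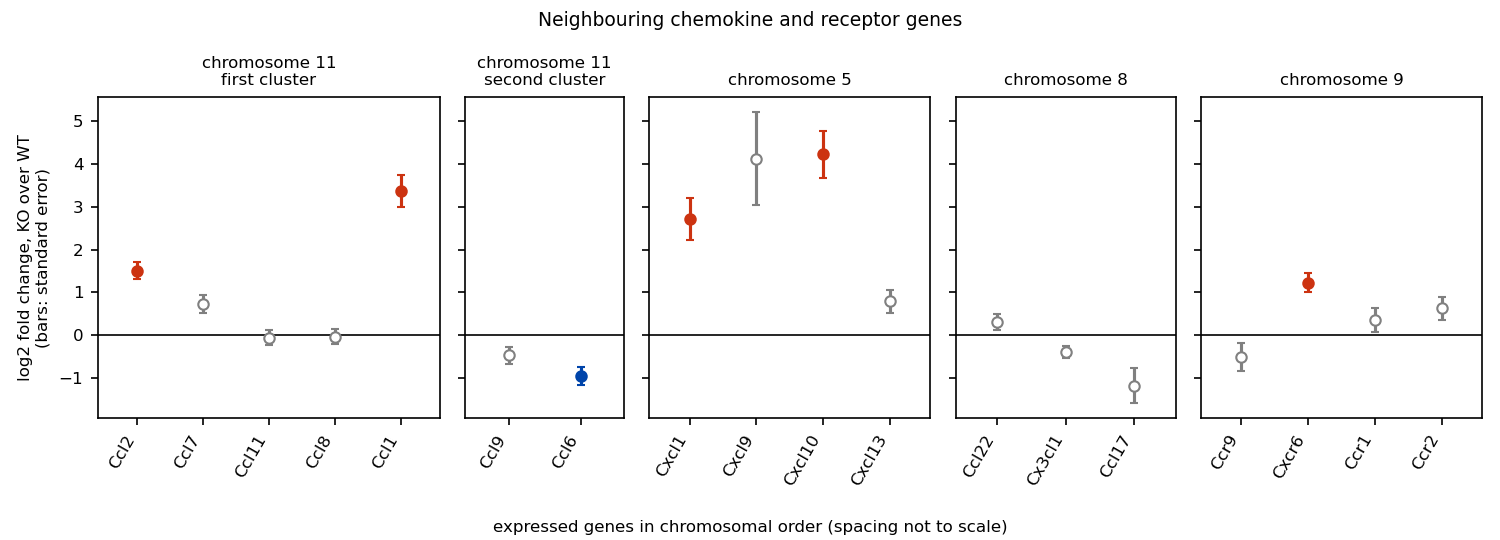
Log2 fold change, KO-labelled libraries over WT, of expressed genes that neighbour each other in 5 chromosomal groups, in chromosomal order and not to scale; bars are standard errors, red is called higher, blue called lower and open grey not called. Neighbours differed widely: Ccl2 (1.51) and Ccl1 (3.37) flank Ccl11 (-0.06) and Ccl8 (-0.04), and Cxcl13 (0.79) lies in a group with Cxcl1 (2.71) and Cxcl10 (4.23).

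Across the receptors, 1 of 14 was called, Cxcr6, beside 6.47% of all tested genes, and 6 of 14 had an unadjusted p under 0.05, beside 29.6%. The share of receptors called was near that of all genes. The edgeR exact test, DESeq2 and limma-voom also called this 1 receptor. Ccr4, of skin-homing T cells, was at 2.54, 3.19 and 3.28 CPM in WT and 1.996, 1.84 and 1.97 CPM in the KO-labelled libraries, and it lay lower without overlap (log2 fold change -0.63, SE 0.21, adjusted p = 0.101, edgeR quasi-likelihood test). Ccr9 and Cxcr5 overlapped between the groups, with log2 fold changes of -0.51 and -0.07, and Ccr10 had 0.06, where the signs of Cxcr5 and Ccr10 turned with a library left out.

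The CX3C and atypical receptors were not called. Cx3cl1, the membrane-anchored ligand, was at 20.1, 19.3 and 21.2 CPM in WT and 13.7, 15.5 and 16.9 CPM in the KO-labelled libraries, below WT in each (log2 fold change -0.39, SE 0.15, adjusted p = 0.124, edgeR quasi-likelihood test, and 0.0448 without KO3). Its receptor Cx3cr1 was at 1.78, 1.32 and 2.65 CPM in WT and 1.54, 2.60 and 4.12 CPM in the KO-labelled libraries, with overlap (log2 fold change 0.53, SE 0.40, adjusted p = 0.394). Among the receptors that take up chemokines, Ackr4 was at 23.0, 24.6 and 29.1 CPM in WT and 18.7, 18.7 and 28.5 CPM in the KO-labelled libraries (log2 fold change -0.22, SE 0.20, adjusted p = 0.493). Ackr2 was at 7.80, 8.16 and 10.97 CPM in WT and 7.06, 7.003 and 11.8 CPM in the KO-labelled libraries (log2 fold change -0.06, SE 0.26, adjusted p = 0.900, sign turned under other settings). In both, KO3 lay within or above the WT range and KO1 and KO2 below it.

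Ackr1, the atypical receptor of venules that binds ligands of both main families, is in the matrix only under its older symbol Darc and so lies outside the symbol rule. Darc was at 18.0, 15.5 and 18.6 CPM in WT and 5.99, 7.66 and 15.5 CPM in the KO-labelled libraries. KO3 again lay beside the WT libraries, and the log2 fold change of -0.84 (SE 0.33) was not called (adjusted p = 0.138, edgeR quasi-likelihood test).

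**Figure D4:**
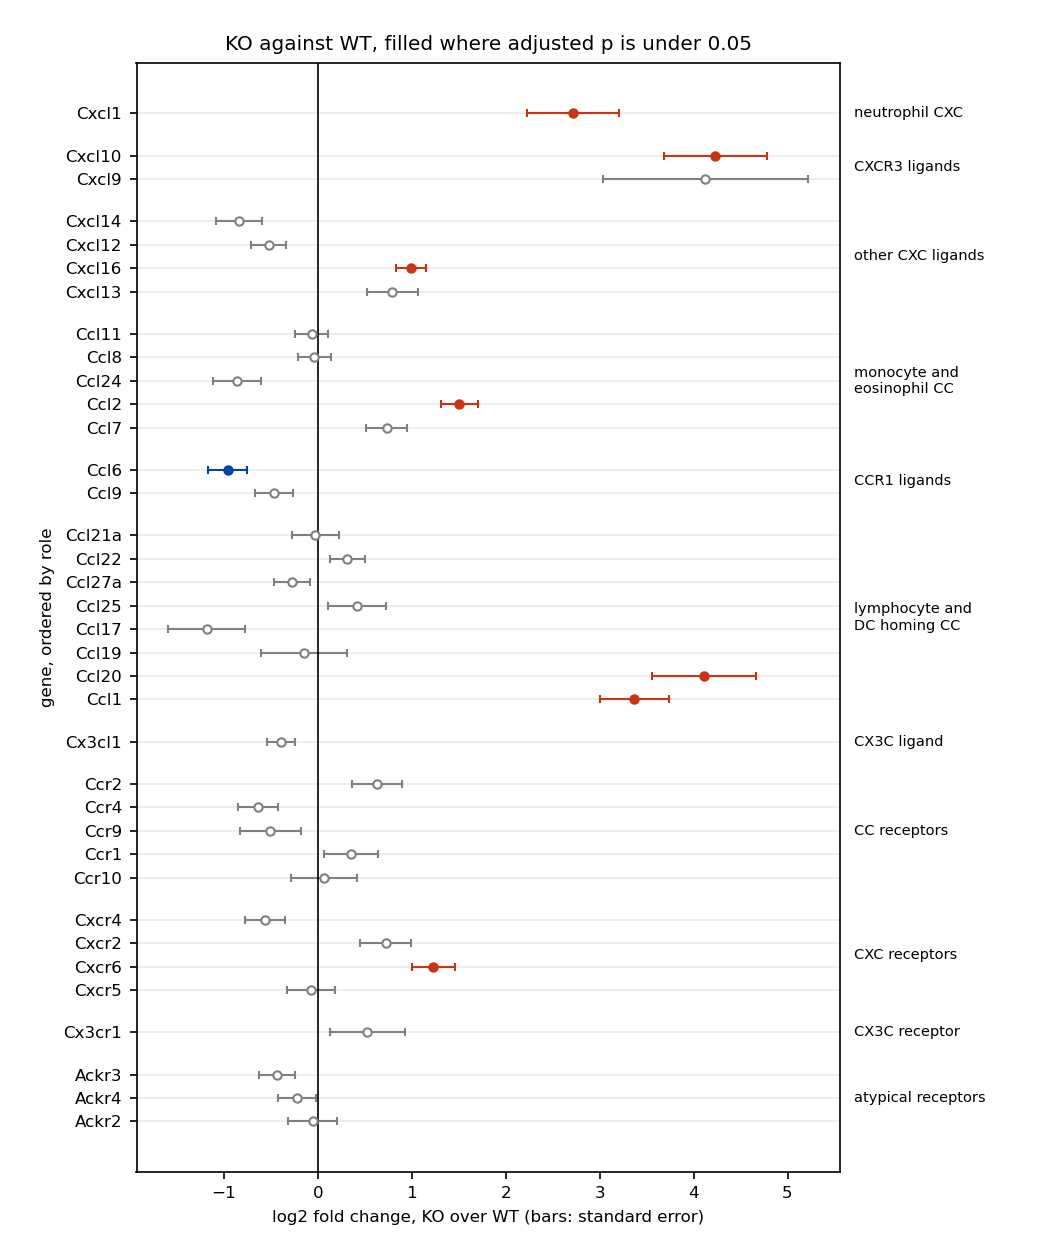
Log2 fold change, KO-labelled libraries over WT, of 36 of the 37 tested chemokine and receptor genes ordered by role; bars are standard errors and filled points have an adjusted p under 0.05. The 7 filled red points lie between 0.99 (Cxcl16) and 4.23 (Cxcl10), the 1 filled blue point is Ccl6 at -0.96, and Cxcl9 has the widest bar.

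Ligands and receptors were then set side by side. Of 36 ligand and receptor pairs with both genes in the matrix, 14 had both tested, and 1 pair, Cxcl16 with Cxcr6, had both called higher. Of the 7 pairs with a called ligand, 3 had a receptor that was not expressed: Cxcl10 with Cxcr3, Ccl1 with Ccr8 and Ccl20 with Ccr6. In the other 3 pairs, Cxcr2 (for Cxcl1), Ccr2 (for Ccl2) and Ccr1 (for Ccl6) were tested and not called, at log2 fold changes of 0.72, 0.63 and 0.35. A receptor carried by a few cells may be under the filter in a tissue sample. Cxcr3 (5 to 27 counts), Ccr8 (8 to 16) and Ccr6 (14 to 54) were counted in every library. Not expressed here therefore means under the filter and not absent.

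**Figure D5:**
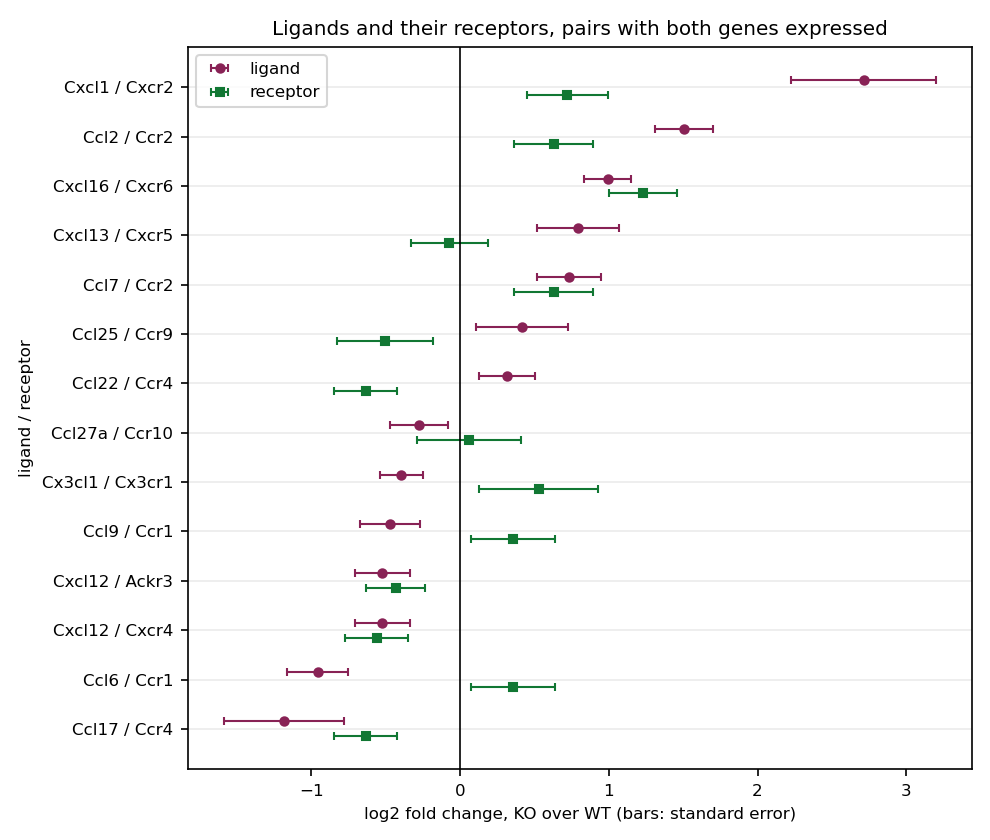
Log2 fold change, KO-labelled libraries over WT, of the ligand (circle) and the receptor (square) for the 14 pairs with both genes tested, with standard errors as bars. Cxcl16 and Cxcr6 lie together near 1, Cxcl1 and Ccl2 lie to the right of their receptors, and Ccl6 lies to the left of Ccr1.

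The 21 genes not expressed were Ccl3, Ccl4, Ccl5, Ccl12, Ccl19-ps1, Ccl27b, Ccl28, Cxcl2, Cxcl3, Cxcl5, Cxcl11, Cxcl17 and Xcl1 among the ligands and Ccr1l1, Ccr3, Ccr6, Ccr7, Ccr8, Cxcr1, Cxcr3 and Xcr1 among the receptors. In 17 of them all 6 libraries were under 1 CPM, and 44 of their 126 counts per library were at or under the floor of 3 counts. The other 4 had 1 or 2 libraries at 1 CPM: Ccr6 and Ccr7 in KO-labelled libraries, Xcr1 in KO1, and Ccl28 in WT2 and WT3. Ccr7, which brings dendritic cells and T cells to lymph nodes, was at 0.399, 0.723 and 0.315 CPM in WT and 1.18, 0.723 and 1.19 CPM in the KO-labelled libraries, with WT2 and KO2 at the same level. Xcr1, of cross-presenting dendritic cells, was at 0.653, 0.425 and 0.855 CPM in WT and 1.07, 0.888 and 1.01 CPM in the KO-labelled libraries, above WT in each. Its ligand Xcl1 had at most 0.296 CPM.

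Considering where the groups did not overlap at all, regardless of the test, 20 of the 37 tested genes were separated, 10 with the KO-labelled libraries above and 10 below. Of all tested genes, 13.5% were separated above, 18.1% below and 31.5% on either side. An unadjusted p under 0.05 was reached by 22 of the 37, beside 29.6% of all tested genes. Both counts include Ccl1, Cxcl1, Cxcl9 and Cxcl13, which passed the filter through the KO-labelled libraries alone. These genes had to be separated with the KO-labelled libraries above, so that their part in either count is not support. Cxcl10 and Ccl20 are in both counts too, and their 3 KO-labelled libraries were enough for the filter. The gap between 22 and the 8 called holds genes with log2 fold changes under 1 in size on both sides of 0. Cxcl14, Cxcl12, Ccl24, Ccr4 and Cx3cl1 were negative, and Ccl7, Cxcl13, Cxcr2 and Ccr2 were positive. It also holds Cxcl9 (4.13) and Ccl17 (-1.18), which were over 1 in size. Without KO3, 8 of the 33 genes then tested were called lower and 8 higher. In that setting 2395 of all 14802 tested genes were called lower and 2496 higher, so that calls rose widely and not in this set alone.

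Genes known to induce chemokine transcription (interferon, interleukin 1, tumour necrosis factor and Toll-like receptor signalling) were read from a separate list. Of 30 tested, 8 were called higher and 0 lower, beside 4.38% higher and 2.09% lower of all tested genes. Of the 30, 15 had an unadjusted p under 0.05 (29.6% of all tested genes). The median log2 fold change was 0.40 beside -0.02 over all tested genes. The exact test called 10 higher and DESeq2 13, both 0 lower. Irf9, a subunit of the interferon-stimulated factor ISGF3, was at 22.5, 27.1 and 20.1 CPM in WT and 64.7, 96.5 and 88.9 CPM in the KO-labelled libraries (log2 fold change 1.84, SE 0.19, adjusted p = 0.00119, edgeR quasi-likelihood test). Irf7 had a log2 fold change of 1.98 (adjusted p = 0.00864) and Stat2, which joins Irf9 in ISGF3, had 1.60 (adjusted p = 0.0121).

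Il1b, the interleukin 1 ligand of myeloid cells, was at 0.653, 0.893 and 0.630 CPM in WT and 3.58, 1.94 and 3.48 CPM in the KO-labelled libraries. All 3 KO-labelled libraries were above WT, and the log2 fold change was 2.03 (SE 0.33, adjusted p = 0.0113, edgeR quasi-likelihood test). No WT library reached 1 CPM, so that Il1b passed the filter through the KO-labelled libraries alone. It had to differ, and its part in the count of inducers called higher is not support. Ifng, the interferon of T and natural killer cells, had 3 or fewer counts in every library. The count of inducers called higher fell to 1 without WT1 or without WT3, to 5 without KO1 and to 3 without KO2, and it was 11 without KO3.

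Signalling components downstream of the receptors were counted in the same way. Of 28 tested, 1 was called higher and 0 lower (edgeR quasi-likelihood test), 7 had an unadjusted p under 0.05, and the median log2 fold change was -0.06. Neither share stood above that of all tested genes, 6.47% called and 29.6% at an unadjusted p under 0.05. The exact test called 2 higher and DESeq2 3, both 0 lower. The 1 was Gnai1, a Gi alpha subunit, at 47.6, 51.5 and 39.8 CPM in WT and 73.7, 78.6 and 80.3 CPM in the KO-labelled libraries, well apart (log2 fold change 0.74, SE 0.14, adjusted p = 0.0207), and no gene of the list was called without WT1, WT3 or KO2.

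Genes that trim chemokines or hold them on the cell surface (proteases, syndecans and heparan sulphate enzymes) gave 0 calls of 18 tested in the edgeR quasi-likelihood test, with 5 at an unadjusted p under 0.05 (29.6% of all tested genes) and a median log2 fold change of -0.15. The exact test called 2 of them lower and DESeq2 2 higher and 1 lower. Chemokine-like genes and members under older symbols gave 0 calls of 9 tested, with a median of -0.50. Of the 9, 4 had an unadjusted p under 0.05, beside 29.6% of all tested genes. The exact test called 2 lower and DESeq2 1 in each direction. Of these, Pf4, the platelet CXC ligand, had a log2 fold change of -0.87 (adjusted p = 0.102) and Cmklr1, the chemerin receptor, had -0.83 (adjusted p = 0.0858).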

How the data were processed

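RNA-Seq of top lip was measured in 6 libraries, 3 labelled KO and 3 labelled WT, grouped by the sample titles. Per the submitters' processing notes, reads were mapped to GRCm38 with TopHat2 2.0.8 and Bowtie2 2.1.0 and counted with HTSeq, and the deposited values are the authors' raw counts per gene symbol. Which counting mode and strand setting were used is not given in the sources used here, so that reads of overlapping genes on opposite strands cannot be separated: 14 of the 37 tested members overlap another gene. There were 0 unused columns and 0 entries without a gene name.

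Tested genes had 1 CPM or more in 3 or more libraries (15009 of 26814, at least 99.77% of each library). The libraries were scaled by TMM, and edgeR 4.0.16 (R 4.3.3) was run with estimateDisp, glmQLFit (legacy=FALSE) and glmQLFTest, with Benjamini-Hochberg adjustment over all tested genes and a threshold of 0.05. CPM in the text are relative to TMM-scaled totals, while the filter used unscaled totals. Levels per kb divide CPM by merged exon length (GENCODE M21, GRCm38). Alternatives were the edgeR exact test (the study's test), DESeq2 1.42.0, limma-voom 3.58.1, other scalings and filters, a block on replicate number, and each library left out. A filter of 2 libraries with a library left out was chosen after seeing the data, because members that pass through the KO libraries alone otherwise drop out. The scripts were tested on simulated data. Tables and figures used Python 3.11.15 and matplotlib 3.10.9. Upstream sequences are RefSeq's (GRCm38.p6), and protein sequences were not used here.

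Members and lists were chosen with earlier results of these data known. Every member is named except 1 tested receptor, which is counted but not reported here. Values in each library are given for called members and the partners of called members. They are also given for the 3 highest tested members of each role list by mean CPM over the 6 libraries, apart from that receptor. Of the 4 called genes with the lowest p in each pathway list, Irf7 and Stat2 are given by log2 fold change and adjusted p only. Each library is 1 mouse, and p-values measure the spread between 3 mice per group. With 3 against 3, an exact permutation test of a single gene cannot go below p = 0.1.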

Additional observations from a re-analysis of the deposited data

How the results depend on the processing

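The 7 genes called higher and the 1 called lower were called under limma-voom, the older and the robust quasi-likelihood fits, DESeq2 size factors, library size alone and upper-quartile scaling. The edgeR exact test and DESeq2 called 8 higher and 4 and 3 lower, 8 higher and 1 lower were called without the filter, and 5 higher and 1 lower with at least 10 counts in every library, where Ccl1 and Cxcl1 were not tested. With a library left out, 4 (without WT1 or KO1) to 8 (without KO3) were called higher and 0 to 8 (without KO3) lower. With the filter at 2 libraries, 4 (without WT1) to 11 (without KO3) were called higher and 0 to 8 lower. Why the count of lower genes moves with the test and with KO3 was not tested. With the replicate number as a block, 7 were higher and 1 lower. Same-numbered libraries correlated at -0.19, 0.31 and 0.33 in their deviations from the group means and not every library correlated best with its own number, so that the numbers were not taken to pair mice.

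No called member changed sign. The signs of 7 uncalled members near 0 turned. Ackr2 was 0.00071 without the filter, Ccl21a 0.0201 under DESeq2, 0.00049 with DESeq2 size factors and 0.032 without the filter, and Ccl8 0.0071 under DESeq2 and 0.0152 without the filter. With a library left out at either filter, values ran from -0.35 to 0.13 (Ackr2), -0.14 to 0.11 (Ccl11), -0.62 to 0.34 (Ccl19), -0.38 to 0.20 (Ccl21a), -0.0893 to 0.11 (Ccl8), -0.27 to 0.26 (Ccr10) and -0.23 to 0.10 (Cxcr5). Over all genes, the exact test called 1165 higher and 1073 lower and DESeq2 1511 and 898, beside 657 and 314, and fewer lower calls came with DESeq2 size factors (207), no filter (204) and at least 10 counts (204). Calls below 1 CPM are limited by depth, where 3 counts are 0.0986 to 0.154 CPM.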
